A study of Rattus norvegicus with 6 samples.

Results

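The Kcn genes encode potassium channels and the subunits that assemble with them, and they were followed here in rat kidney as all genes on the array whose symbol begins with Kcn. Of 18166 genes with a single platform gene symbol, 87 were Kcn genes, each represented by the row with the highest mean. They fall into 21 subfamilies by symbol. The series compares 3 rats of the HQYDP group with 3 rats of the DM group, and the question was whether renal gene expression differed after the high dose of Qishen Yiqi dripping pill (QYDP), a compound of plant medicines. All 6 animals were Sprague Dawley rats given streptozotocin at 60 mg/kg, which destroys the β cells of the pancreas, and were 17 weeks old by their labels. HQYDP rats were given QYDP at 300 mg/kg/day for 8 weeks, while DM rats, diabetic as well, were given saline. The study's methods name male rats and the kidney cortex, whereas the labels say kidney only. No array of the normal control or low-dose rats was analysed here, so every value below compares diabetic rats with diabetic rats. Streptozotocin diabetes models the loss of insulin, not insulin resistance, and the toxin can itself reach the kidney.

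Potassium is filtered in the glomerulus, mostly taken back in the proximal tubule and the thick ascending limb, and secreted into the urine by the late distal tubule and the collecting duct. Apical channels recycle or secrete potassium into the lumen, and basolateral channels set the membrane voltage that drives sodium, chloride and magnesium transport. Inward rectifiers (Kcnj) carry most of these currents in the nephron, tandem-pore channels (Kcnk) carry background currents, and voltage-gated channels and their auxiliary subunits are best known from nerve and muscle.

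Each rat was measured on 1 Affymetrix whole-transcript array, and the deposited values are on a log scale taken to be log2. Values of a group are given in the order of replicates 1 to 3. A gene was called higher or lower with an unadjusted limma p under 0.05 and a fold over 1.5, the thresholds of the study. The study's methods do not name limma, and its counts of changed genes were not the same as those here. Differences are HQYDP minus DM on the log2 scale. Adjusted p-values are Benjamini-Hochberg values over all 18166 genes. Array medians lay between 4.70 and 4.85. On the first principal component of all genes the HQYDP arrays lay between -16.2 and -10.6, DM replicate 3 lay beside them at -14.9, and DM replicates 1 and 2 lay at 17.9 and 39.5. In the labels, the word re-analysis stands on all DM arrays and on none of the HQYDP arrays, and its meaning is not explained, so if the groups were run separately, batch and group cannot be told apart. Markers of proximal tubule and thick ascending limb were high on every array, with list means of at least 9.38, whereas neuron and glia and striated muscle markers had list means of at most 4.67.

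At the study thresholds 3 Kcn genes (3.45%) were higher in the HQYDP group, beside 1.46% of all genes, and 1 was lower, beside 1.82%. Kcnj10, Kcnj13 and Kcne1 were higher, and Kcnj8 was lower. Together these 4 make 4.60% of the 87, beside 3.28% of all genes in either direction. No Kcn gene had an adjusted p under 0.05, where 0.0165% of all genes did, although 12 (13.8%, 9 higher and 3 lower) had an unadjusted p under 0.05, beside 7.38% of all genes. In 12 Kcn genes the HQYDP and DM arrays did not overlap, which is 13.8% of the members, beside 12.1% of all genes. By direction, 10 (11.5%) were higher, beside 6.08% of all genes, and 2 (2.30%) were lower, beside 6.01%. The median difference of the Kcn genes was 0.01 (interquartile range -0.08 to 0.16), and 45 differences were positive and 42 negative. Kcnj10 and Kcnj13 also stand in the study's own table of changed genes, chosen on these same arrays, and their count here is not independent evidence of direction. In bulk tissue, fewer cells of a type and less RNA per cell cannot be told apart.

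**Figure D1:**
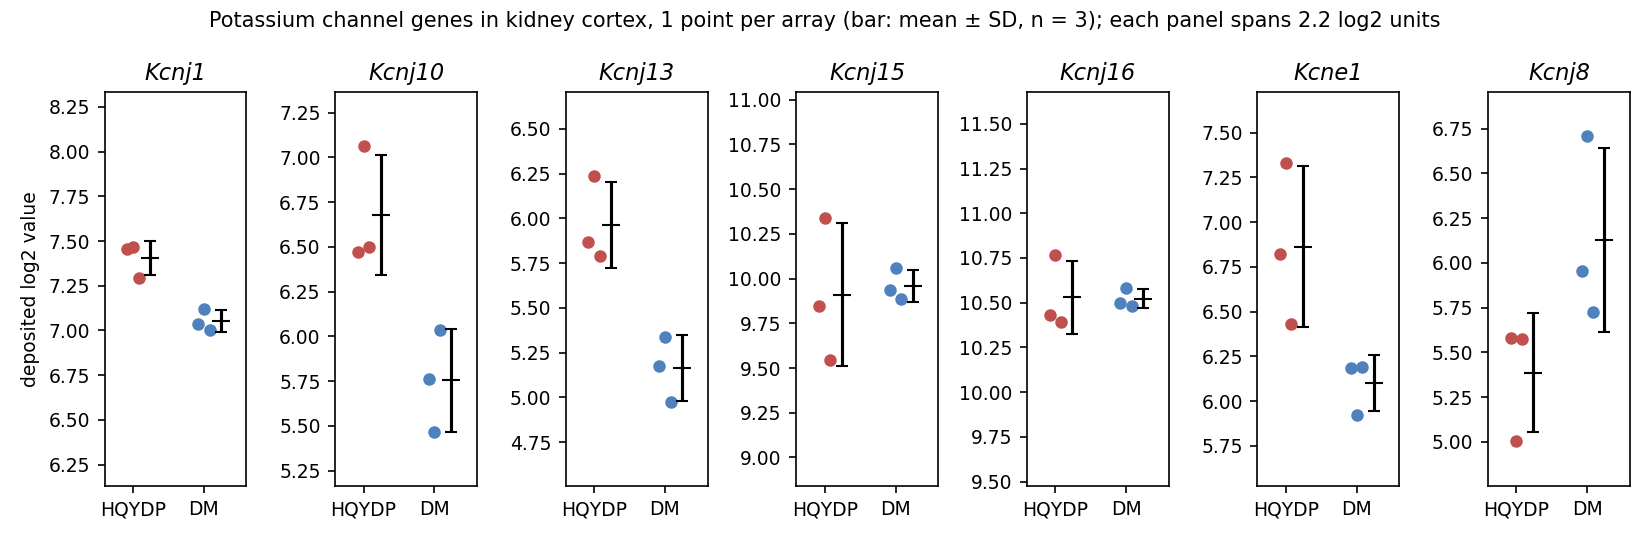
Log2 values of named Kcn genes on each array, 3 HQYDP arrays left of 3 DM arrays for each gene, with bars at the group mean ± SD (n = 3) and each panel on its own log2 axis. Kcnj10, Kcnj13 and Kcne1 lie higher in every HQYDP array than in any DM array, Kcnj8 lies lower, and Kcnj15 and Kcnj16 overlap.

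Kcnj10, Kcnj13, Kcnj1, Kcnj15 and Kcnj16 are the inward rectifiers of the kidney tubule. Their signals ranked differently on the array, which describes the probes and does not order the amounts of RNA. The mean of Kcnj16 stood at the 98.9 percentile of all genes, that of Kcnj15 at 98.0 and that of Kcnj1 at 77.2, while Kcnj10 stood at 60.2 and Kcnj13 at 49.4. The last pair were therefore not bright by this measure.

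Kcnj10, which forms the basolateral potassium channel of the distal convoluted tubule together with Kcnj16, had log2 values of 6.47, 7.07 and 6.50 in the HQYDP group, against 5.76, 5.46 and 6.04 in the DM group. All HQYDP arrays were above all DM arrays, with HQYDP replicate 2 highest and DM replicate 2 lowest. The group means were 6.68 ± 0.33 in HQYDP and 5.75 ± 0.29 in DM (SD, n = 3 each), a difference of 0.93 (SE 0.21, 95% interval 0.45 to 1.41) or 1.90-fold (limma adjusted p = 0.279, unadjusted p = 0.00167). Kcnj16 read 10.43, 10.76 and 10.39 in the HQYDP group, against 10.50, 10.58 and 10.48 in the DM group. Those ranges overlapped, and the difference was 0.0078 (95% interval -0.35 to 0.36, limma adjusted p = 0.999). Within an array, the Kcnj10 value minus the Kcnj16 value was -3.96, -3.70 and -3.89 in HQYDP, against -4.74, -5.12 and -4.45 in DM. The HQYDP arrays were again all above the DM arrays, by 0.92 on average (exact permutation p = 0.1, two-sided, the smallest that 3 arrays against 3 allow; adjusted p = 0.3 over 3 subunit pairs). With 3 arrays against 3, none of the 3 pairs can pass a threshold. Each pair holds a gene called on these same arrays, so its p-value is not independent evidence. The difference here rests on Kcnj10, whose values are given above.

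Kcnj13, an inward rectifier found on the basolateral side of tubule cells, gave 5.87, 6.24 and 5.79 in HQYDP kidneys, against 5.18, 5.34 and 4.98 in DM kidneys. Every HQYDP value exceeded every DM value. Means of 5.96 ± 0.24 in HQYDP and 5.16 ± 0.18 in DM (SD, n = 3 each) differed by 0.80 (SE 0.18, 95% interval 0.40 to 1.198), which is 1.74-fold (limma adjusted p = 0.263, unadjusted p = 0.00127). In the RefSeq annotation Kcnj13 overlaps another protein-coding gene, Gigyf2, whose value was not analysed here.

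Kcnj1, the apical ROMK channel that recycles potassium in the thick ascending limb and secretes it in the collecting duct, had 7.45, 7.46 and 7.29 in HQYDP, against 7.04, 7.12 and 7.001 in DM. The groups did not overlap, and the spread within each was small. Its difference of 0.35 (SE 0.14, 95% interval 0.03 to 0.67) is 1.28-fold, below the fold threshold (limma adjusted p = 0.618, unadjusted p = 0.0363). Kcnj15, a basolateral rectifier that can also pair with other Kcnj subunits, had 9.85, 10.34 and 9.55 in HQYDP, against 9.94, 10.06 and 9.88 in DM. The HQYDP arrays spanned the whole DM range, and the difference was -0.050 (95% interval -0.51 to 0.41, limma adjusted p = 0.992).

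The lower gene was Kcnj8, the pore of an ATP-sensitive channel of vascular smooth muscle and pericytes. Kcnj8 had 5.58, 5.003 and 5.58 in HQYDP kidneys, against 5.96, 6.71 and 5.72 in DM kidneys. The groups did not overlap, but HQYDP replicate 3 and DM replicate 3 lay close together and replicate 2 was extreme in both groups. Means of 5.39 ± 0.33 in HQYDP and 6.13 ± 0.51 in DM (SD, n = 3 each) gave a difference of -0.74 (SE 0.27, 95% interval -1.34 to -0.14), or 1.67-fold lower in HQYDP (limma adjusted p = 0.538, unadjusted p = 0.0203). Without HQYDP replicate 2 the difference was -0.55 and without DM replicate 2 it was -0.45, and in both cases the thresholds were no longer passed. The methods' t-test did not call it. Abcc9, the sulfonylurea receptor that surrounds the Kcnj8 pore, had 6.26, 5.90 and 6.22 in HQYDP, against 6.19, 7.49 and 6.09 in DM, and DM replicate 2 again stood highest. Its difference was -0.47 (SE 0.33, 95% interval -1.21 to 0.27, limma adjusted p = 0.87). Kcnj8 minus Abcc9 within an array was -0.67, -0.89 and -0.64 in HQYDP, against -0.24, -0.78 and -0.36 in DM. These overlapped, with a mean difference of -0.27 (exact permutation p = 0.3, two-sided, adjusted p = 0.3). As for the Kcnj10 pair, this test could not pass a threshold, and no conclusion is drawn from it.

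Over all 15 Kcnj genes, 2 were higher and 1 was lower at the study thresholds (20.0% in all), and 4 (26.7%) did not overlap between the groups, beside 3.28% called and 12.1% without overlap among all genes. Kcnj10 and Kcnj13, the higher genes, stand in the study's own table of changed genes, chosen on these same arrays. The lower gene, Kcnj8, lost its call in the settings given above. The share called is therefore not independent evidence about this subfamily. The median difference was 0.02. The remaining 9 members, which include Kcnj12 with 0.21, the ATP-sensitive pore Kcnj11 with 0.27, Kcnj14 with -0.30 and Kcnj4 with -0.18, overlapped between the groups. Kcnj2, the classical inward rectifier of excitable cells, differed by 0.02, and the G-protein-gated subunits Kcnj3, Kcnj5, Kcnj6 and Kcnj9 by 0.17, -0.11, -0.04 and 0.11.

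Kcne1, a single-span subunit that slows Kcnq1 currents and is known from the apical side of the proximal tubule, was the auxiliary gene that passed the thresholds. It had 6.82, 7.33 and 6.43 in the HQYDP group, against 6.19, 5.92 and 6.19 in the DM group. No DM array reached the lowest HQYDP array, and the HQYDP arrays were more scattered. The means were 6.86 ± 0.45 in HQYDP and 6.10 ± 0.15 in DM (SD, n = 3 each), a difference of 0.76 (95% interval 0.26 to 1.26) or 1.69-fold (limma adjusted p = 0.426, unadjusted p = 0.00735). Without HQYDP replicate 2 it was 0.53 and did not pass the fold threshold, and the methods' t-test did not call it. Kcnq1, its pore partner, had 6.65, 7.05 and 6.72 in HQYDP, against 6.69, 6.18 and 6.83 in DM, which overlapped (0.23, 95% interval -0.22 to 0.69, limma adjusted p = 0.915). Kcne1 minus Kcnq1 was 0.18, 0.28 and -0.28 in HQYDP, against -0.51, -0.26 and -0.64 in DM. HQYDP replicate 3 fell inside the DM range (mean difference 0.53, exact permutation p = 0.2, two-sided, adjusted p = 0.3). This pair could not pass a threshold either, and no conclusion is drawn from its p-value. The other 4 Kcne genes had differences between -0.35 and -0.06, and none passed the thresholds.

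The promoters of the 4 called genes are shown because these genes carry the differences, and they differed in base composition. Each line gives the 250 bases before the gene start in RefSeq on the assembly GRCr8, on the strand of the gene. Kcnj10 is at chr13:87334260-87334509 on the plus strand. Kcnj13 is at chr9:95518987-95519236, Kcne1 at chr11:45077034-45077283 and Kcnj8 at chr4:177246549-177246798, all on the minus strand. Capitals mark exact matches, on either strand, to TATAAA (the TATA box), CCAAT (the CCAAT box), GGGCGG (the GC box) or GTTAAT (a core of the site of the tubule factor HNF1).
Kcnj10: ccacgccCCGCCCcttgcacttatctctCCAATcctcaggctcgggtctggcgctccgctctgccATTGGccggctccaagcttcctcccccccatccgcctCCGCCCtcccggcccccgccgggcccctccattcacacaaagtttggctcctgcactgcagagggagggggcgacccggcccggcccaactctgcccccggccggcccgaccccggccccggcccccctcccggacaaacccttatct
Kcnj13: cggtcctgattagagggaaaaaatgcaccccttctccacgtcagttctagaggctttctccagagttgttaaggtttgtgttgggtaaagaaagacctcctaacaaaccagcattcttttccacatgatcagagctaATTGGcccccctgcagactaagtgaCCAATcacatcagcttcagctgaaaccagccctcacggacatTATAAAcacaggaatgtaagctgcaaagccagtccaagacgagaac
Kcne1: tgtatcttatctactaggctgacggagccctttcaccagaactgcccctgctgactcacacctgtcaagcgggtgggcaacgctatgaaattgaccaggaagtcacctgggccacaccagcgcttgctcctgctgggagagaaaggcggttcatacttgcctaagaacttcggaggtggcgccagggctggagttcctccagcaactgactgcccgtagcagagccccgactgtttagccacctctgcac
Kcnj8: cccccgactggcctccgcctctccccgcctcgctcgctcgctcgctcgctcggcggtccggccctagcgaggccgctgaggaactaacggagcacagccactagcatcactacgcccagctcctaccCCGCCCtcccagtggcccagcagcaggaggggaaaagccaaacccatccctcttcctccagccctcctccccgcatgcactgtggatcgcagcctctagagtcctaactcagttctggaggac

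The Kcnj10 promoter was 72.4% G and C with 20 CpG, against medians of 51.2% and 5 over 33469 rat promoters of the same length, and it held CCAAT and the GC box. The Kcnj13 promoter was 46.8% G and C with 4 CpG, and it alone held TATAAA, 46 to 41 bases before the start, with CCAAT upstream of it on both strands. The Kcnj8 promoter was 66.8% G and C with 18 CpG and 1 GC box, and that of Kcne1 was 57.6% with 9 CpG and none of the 4 motifs. Among all promoters 12.9% held the TATA box, 34.0% the CCAAT box, 30.5% the GC box and 6.45% the HNF1 core, which was in none of the 4. A match describes letters and not a bound site, and an absent match says only that the letters are not in this window.

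**Figure D2:**
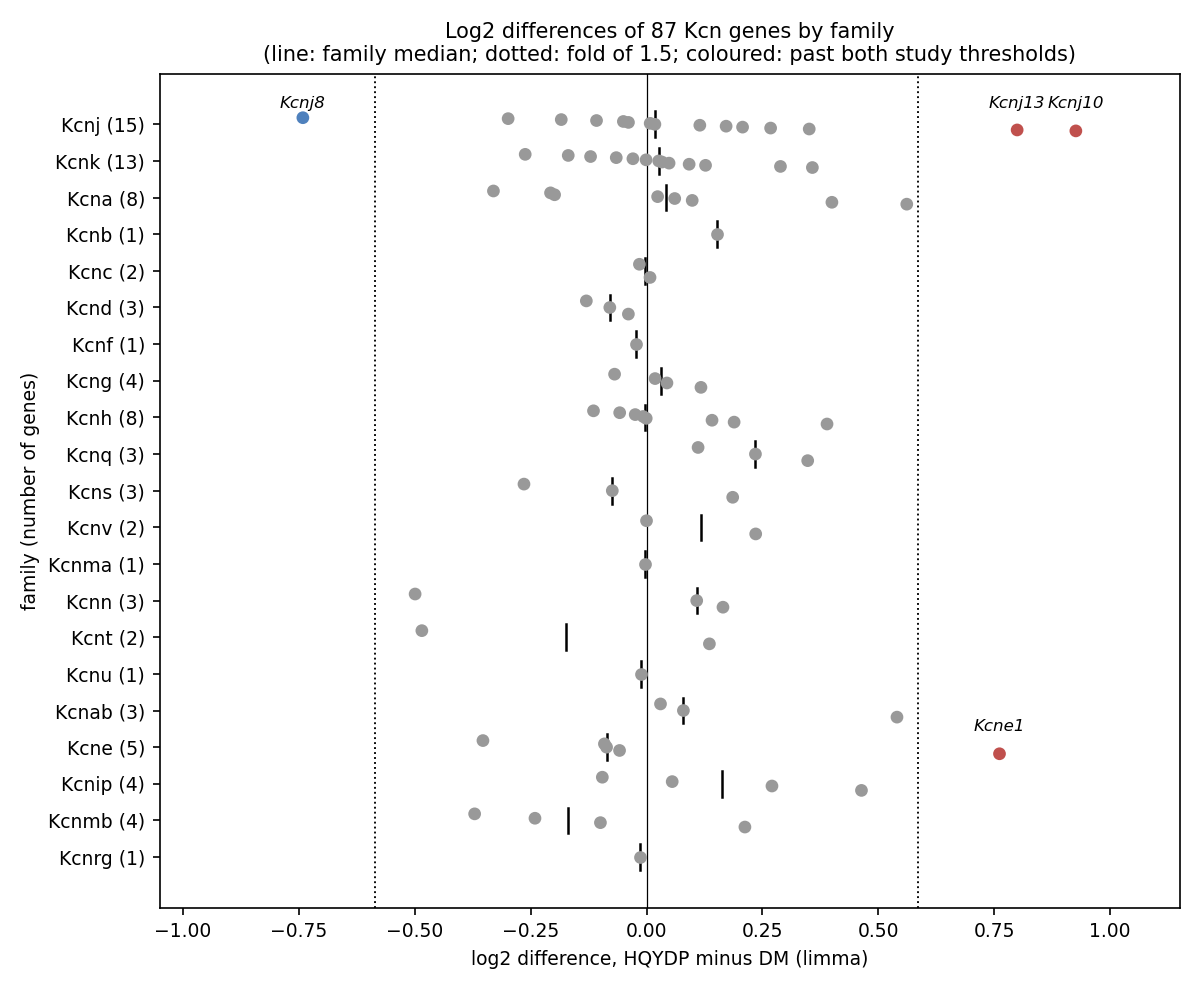
Log2 difference, HQYDP minus DM, of each of the 87 Kcn genes by subfamily, each point a gene, with the fold of 1.5 in either direction as dotted lines and subfamily medians as short lines. The 4 called genes lie in Kcnj and Kcne, and the other subfamilies stay between the dotted lines.

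Tandem-pore channels showed no called member. The 13 Kcnk genes had differences between -0.26 and 0.36 with a median of 0.03, and the groups overlapped in every one. Kcnk1, a weak background channel of the distal nephron, had 8.28, 8.09 and 8.53 in HQYDP, against 8.69, 8.68 and 8.31 in DM. DM replicate 3 lay inside the HQYDP range, and the difference was -0.26 (95% interval -0.66 to 0.14, limma adjusted p = 0.859). Kcnk5, an alkaline-activated channel of the proximal tubule tied to bicarbonate reabsorption, had 6.86, 7.63 and 7.19 in HQYDP, against 7.42, 7.31 and 6.96 in DM. Its groups overlapped almost fully, with a difference of -0.0011 (95% interval -0.49 to 0.49). Kcnk9, an acid-sensitive channel, had the highest difference of the family, 0.36 (limma adjusted p = 0.774). Kcnk6 is the Kcn gene with more than 1 row, and its rows differed by -0.12 (the row used) and -0.22.

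The 35 voltage-gated pore genes had no called member either. Their median difference was 0.01, their range -0.33 to 0.56, and 4 of them (11.4%) were higher in HQYDP without overlap, beside 6.08% of all genes. Kcna4, a fast-inactivating channel, came nearest to the thresholds with 4.09, 3.72 and 4.18 in HQYDP, against 3.49, 3.33 and 3.49 in DM. The difference of 0.56 (SE 0.17) is 1.48-fold, just outside the fold threshold (limma adjusted p = 0.445, unadjusted p = 0.00829). Leaving out HQYDP replicate 2 gave 0.70, and leaving out DM replicate 1 or DM replicate 3 gave 0.59, each past the thresholds. Its signal is low, at the 17.2 percentile of all genes. Kcnh5, Kcnq3 and Kcnv1 were the others without overlap, with differences of 0.39, 0.35 and 0.24. Their signals were low too, at the 6.20, 27.6 and 8.73 percentiles. Kcna10, a cyclic-nucleotide-sensitive channel, had 0.40 with overlapping groups.

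Within the subfamilies of this class, the member with the highest mean was close between the groups. Kcna7, a muscle channel, had 5.36, 5.49 and 5.45 in HQYDP, against 5.44, 5.01 and 5.55 in DM. Kcnb2, a delayed rectifier, had 4.73, 4.32 and 4.76 in HQYDP, against 4.69, 4.06 and 4.61 in DM. For Kcnc1, a channel of fast-spiking neurons, the HQYDP arrays gave 4.06, 4.49 and 4.56, against 4.45, 4.41 and 4.23 in DM arrays. All of these overlapped, with differences of 0.10, 0.15 and 0.0074. Kcnd3, an A-type channel, had 4.36, 4.45 and 4.38 in HQYDP, against 4.60, 4.35 and 4.63 in DM. Its difference was -0.13, and the other Kcnd genes were also slightly negative (-0.08 and -0.04), none of them past the thresholds. Kcnh3, an ether-a-go-go family channel of the brain, had 4.96, 4.49 and 4.82 in HQYDP, against 4.84, 4.94 and 4.82 in DM, a difference of -0.11. The 3 Kcnq genes were all positive, with 0.23 for Kcnq1, 0.35 for Kcnq3 and 0.11 for Kcnq5, and none passed the thresholds.

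The modifier subunits, which form no channel of their own, followed the same course. Kcnf1 had 4.52, 4.29 and 4.10 in HQYDP, against 4.37, 4.13 and 4.49 in DM. Kcng1 had 5.28, 5.04 and 5.18 in HQYDP, against 5.30, 5.05 and 5.02 in DM. Their differences were -0.02 and 0.04, well inside the spread of the arrays. Kcns3 had 4.70, 4.32 and 4.08 in HQYDP, against 4.62, 4.69 and 4.02 in DM. Kcnv2, known from photoreceptors, had 4.03, 3.70 and 4.05 in HQYDP, against 3.96, 3.82 and 4.002 in DM. Both overlapped between the groups, with differences of -0.07 and -0.00017.

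Among the 7 genes of the Kcnma, Kcnn, Kcnt and Kcnu subfamilies none passed the thresholds, and the median difference was -0.0030. Kcnma1, the large-conductance channel behind flow-driven potassium secretion, had 5.18, 4.96 and 5.02 in HQYDP, against 5.03, 5.25 and 4.88 in DM. The groups overlapped, with a difference of -0.0030 (95% interval -0.36 to 0.36). Kcnn4, the intermediate-conductance channel of epithelia, lymphocytes and macrophages, had 5.11, 4.73 and 5.18 in HQYDP, against 5.75, 5.65 and 5.12 in DM. DM replicate 3 lay inside the HQYDP range, and the difference was -0.50 (SE 0.21, limma adjusted p = 0.622, unadjusted p = 0.0369), short of the fold threshold. It was -0.59 without HQYDP replicate 3 and -0.69 without DM replicate 3, past the thresholds in both cases. Kcnt2, a relative of the sodium-activated Kcnt1, had 3.19, 2.90 and 3.25 in HQYDP, against 3.50, 4.09 and 3.19 in DM. Its difference was -0.48 (limma adjusted p = 0.71) and -0.69 without DM replicate 3, when it passed. The Kcnt2 signal is low, at the 12.8 percentile of all genes. Kcnt1 itself had 5.85, 5.92 and 6.24 in HQYDP, against 5.91, 5.89 and 5.80 in DM, and the testis channel Kcnu1 had 3.56, 3.59 and 3.56 in HQYDP, against 3.67, 3.46 and 3.62 in DM. Their differences were 0.14 and -0.01.

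The 17 auxiliary genes held 1 higher and no lower member, with a median difference of -0.01. They make 5.88% called, beside 3.28% of all genes, and 4 (23.5%) did not overlap between the groups, beside 12.1%. Kcnab1, a cytoplasmic β subunit with an oxidoreductase fold, had 6.65, 7.01 and 6.76 in HQYDP, against 6.28, 6.37 and 6.14 in DM. All HQYDP arrays were higher, by 0.54 on average (SE 0.16, limma adjusted p = 0.43) or 1.45-fold, just outside the fold threshold. Without HQYDP replicate 1 the difference was 0.62 and without DM replicate 2 it was 0.60, and both pass. Kcnip4, a calcium-binding partner of Kcnd channels, had 6.41, 6.32 and 6.25 in HQYDP, against 5.93, 5.95 and 5.71 in DM. Its groups were also apart, with a difference of 0.46 (SE 0.15, limma adjusted p = 0.477). Kcnmb2, a β subunit of the Kcnma1 channel, was the auxiliary gene whose HQYDP arrays all lay below the DM arrays, with a difference of -0.37 (limma unadjusted p = 0.0482). Kcnmb1, the smooth muscle β subunit of that channel, had 5.47, 5.30 and 4.91 in HQYDP, against 5.27, 5.86 and 4.85 in DM. It overlapped, with a difference of -0.10. Kcnrg, a regulator of Kv channel assembly, had 4.52, 4.63 and 4.73 in HQYDP, against 4.57, 4.60 and 4.76 in DM, a difference of -0.01.

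**Figure D3:**
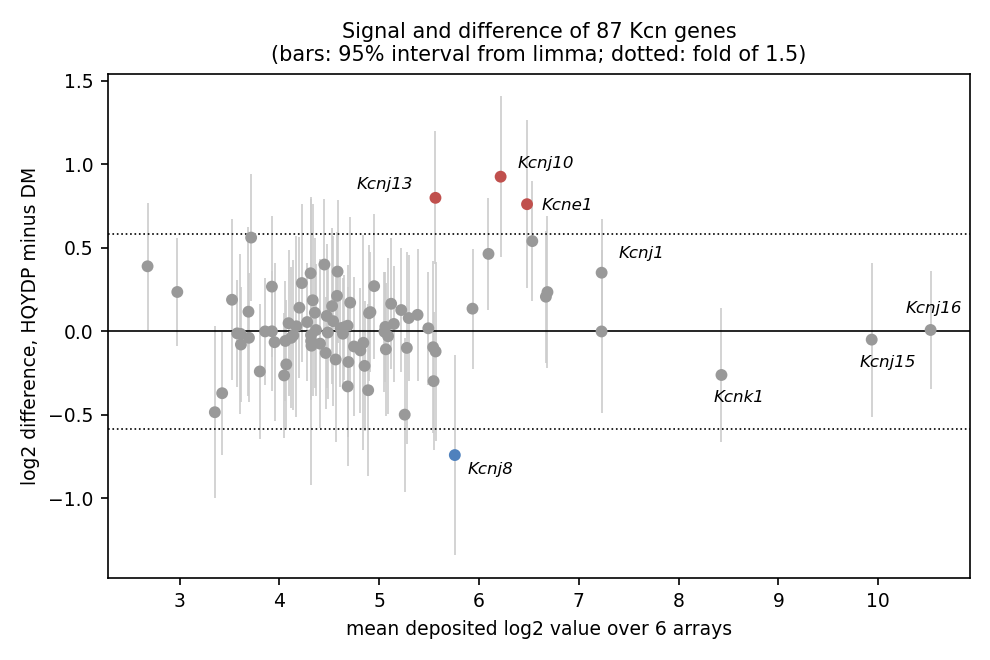
Log2 difference, HQYDP minus DM, of each Kcn gene against its mean log2 signal over the 6 arrays, with 95% intervals from limma as bars and a fold of 1.5 as dotted lines. Most Kcn genes lie at low signals, 74 of 87 below the median of all genes.

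Most Kcn genes gave low signals: 74 of 87 had a mean below the median of all genes. The 13 members above it were Kcnj1, Kcnj8, Kcnj10, Kcnj12, Kcnj15, Kcnj16, Kcnk1, Kcnk5, Kcnq1, Kcnab1, Kcne1, Kcnip4 and Kcnt1. The split uses the mean over all 6 arrays. Kcnj8 lies above it through its DM mean alone, 5.39 in HQYDP and 6.13 in DM, so no share of called genes is given for either side.

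**Figure D4:**
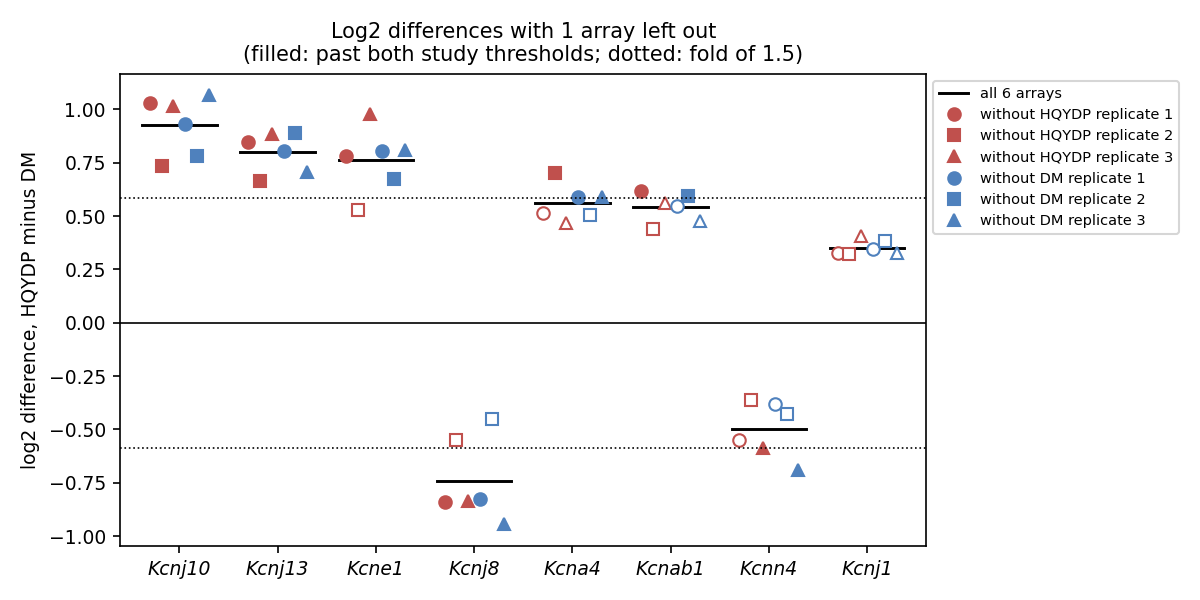
Log2 difference, HQYDP minus DM, of named Kcn genes with all 6 arrays and with each array left out in turn, filled where both thresholds are passed. Kcnj10 (0.73 to 1.07) and Kcnj13 (0.66 to 0.89) stay above the fold threshold in all 6 cases, whereas Kcne1 (0.53 to 0.98) and Kcnj8 (-0.94 to -0.45) do not.

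Kcnj10 and Kcnj13 passed the thresholds with any 1 array left out, with differences of 0.73 to 1.07 and 0.66 to 0.89. The corresponding ranges were 0.53 to 0.98 for Kcne1 and -0.94 to -0.45 for Kcnj8, and both genes lost their call in at least 1 case, as given above.

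Means of some cell type marker lists differed between the groups. Counts called higher stand beside 1.46% of all genes. Thick ascending limb markers (7 genes) had mean log2 levels of 9.87 to 10.03 in HQYDP arrays and 9.38 to 9.44 in DM arrays, with 4 of 7 called higher. Intercalated cell markers (6 of 7 measured) had 7.71 to 7.94 in HQYDP and 7.01 to 7.20 in DM, with 4 called higher, and distal convoluted tubule markers (5 genes) had 7.74 to 8.003 in HQYDP and 7.16 to 7.68 in DM, with 1 called higher. The means of these 3 lists did not overlap between the groups, but single members did. In the thick ascending limb list Ptger3 (difference -0.21), Slc12a1 (0.20) and Cldn10 (0.34) overlapped. In the intercalated cell list Slc4a1 (0.17) and Foxi1 (0.38) overlapped. Of the distal convoluted tubule list only Slc8a1 (0.88) was without overlap. Principal cell markers (7 genes) spanned 7.59 to 7.83 in HQYDP and 7.42 to 7.75 in DM with none called, and proximal tubule markers (8 genes) spanned 10.29 to 10.56 in HQYDP and 10.15 to 10.35 in DM with 1 called higher. Of the called markers, Umod, Casr, Egf, Atp6v1b1, Atp6v0d2, Slc26a4, Slc26a7, Slc8a1 and Slc7a13 also stand in the study's own tables of changed genes. Those were chosen on these same arrays, so the counts of called tubule markers are not independent evidence. The part of the tubule lists in the Kcnj10, Kcnj13, Kcnj1 and Kcne1 values was not tested.

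Leukocyte markers (5 genes) had mean levels of 5.11 to 5.71 in HQYDP and 5.50 to 6.41 in DM. Of the 5, 3 (Ptprc, Cd68 and Csf1r) were called lower, beside 1.82% of all genes. The groups overlapped in all 5, and the lymphocyte markers Cd3e and Cd79a were not called. In DM, replicates 1 and 2 gave 6.20 and 6.41 and replicate 3 gave 5.50. Kcnn4 also had its higher DM values in replicates 1 and 2 (5.75 and 5.65, against 5.12 in replicate 3). For Kcnj8, DM replicate 2 stood apart at 6.71, and replicates 1 and 3 gave 5.96 and 5.72. Smooth muscle markers (3 of 5 measured; Acta2 and Cnn1 not analysed here) spanned 6.80 to 7.14 in HQYDP and 6.85 to 7.32 in DM, and endothelial markers (3 of 5) 8.17 to 8.23 in HQYDP and 8.04 to 8.47 in DM, with none called and DM replicate 2 highest in both. The smooth muscle markers did not move together. Myh11 (difference 0.40) was higher in HQYDP without overlap, whereas Tagln (-0.27) and Des (-0.26) had negative differences and overlapped. Inner medulla markers (3 genes) spanned 5.29 to 5.60 in HQYDP and 5.51 to 5.69 in DM. Neuron and glia markers (4 of 6) spanned 4.38 to 4.67 in HQYDP and 4.27 to 4.54 in DM, and striated muscle markers (5 genes) 3.67 to 4.02 in HQYDP and 3.69 to 3.88 in DM. The part of any of these lists in the Kcnj8 and Kcnn4 values was not tested.

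**Figure D5:**
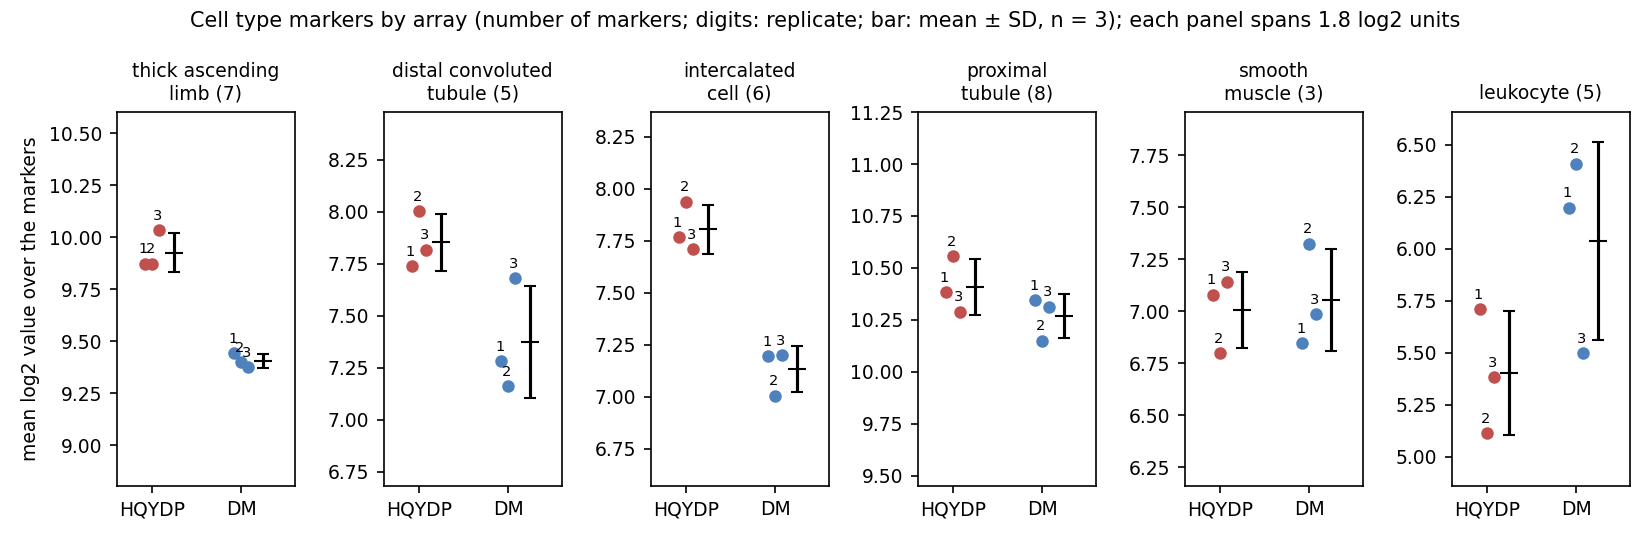
Mean log2 level of 6 cell type marker lists on each array, HQYDP arrays left of DM arrays, with bars at the mean ± SD (n = 3). Thick ascending limb and intercalated cell lists are higher in all HQYDP arrays, and the leukocyte list is highest in DM replicates 1 and 2.

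Egf was higher and Atp12a and Sgk1 were lower among genes that work beside the channels in renal potassium handling. Of a list of 47 such pumps, cotransporters, chloride and sodium channels and regulators, 39 were measured. These 3 genes make 7.69% of them, beside 3.28% of all genes. All 3 also stand in the study's own tables of changed genes, chosen on these same arrays. The list was drawn up with earlier results of these data known, so its shares are not independent evidence. The groups did not overlap in 10 (25.6%, 8 higher and 2 lower), beside 12.1% of all genes (6.08% higher and 6.01% lower). The median difference was 0.15. Egf, which is made in the thick ascending limb and distal convoluted tubule and promotes magnesium uptake, had 11.05, 11.11 and 11.33 in HQYDP, against 9.81, 9.98 and 10.54 in DM. It was higher by 1.05 (SE 0.21, limma adjusted p = 0.233) without overlap. Atp12a, the colonic proton and potassium pump that reclaims potassium in the collecting duct, had 5.92, 5.97 and 5.97 in HQYDP, against 6.49, 7.04 and 7.66 in DM. It fell by 1.11 (SE 0.26, limma adjusted p = 0.279), with HQYDP arrays close together and DM arrays spread out. Sgk1, the aldosterone-responsive kinase that acts on Kcnj1 and the epithelial sodium channel, had 9.99, 10.46 and 9.82 in HQYDP, against 10.63, 11.30 and 10.75 in DM. It fell by 0.81 (SE 0.23, limma adjusted p = 0.416) without overlap.

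The salt cotransporters that depend on potassium channels did not pass the thresholds with all 6 arrays. Slc12a1, which takes up potassium with sodium and chloride in the thick ascending limb, had 10.77, 10.56 and 11.14 in HQYDP, against 10.46, 10.76 and 10.66 in DM (0.20, limma adjusted p = 0.924). Slc12a3, the thiazide-sensitive cotransporter of the distal convoluted tubule, had 10.29, 10.78 and 10.16 in HQYDP, against 10.41, 9.49 and 9.996 in DM (0.45, limma adjusted p = 0.802). Both overlapped between the groups, and Slc12a3 passed with 0.67 without DM replicate 1. The 3 subunits of the epithelial sodium channel had differences of 0.21 to 0.37, and none was called.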

How the data were processed

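Total kidney RNA of 3 HQYDP and 3 DM rats was hybridized to Affymetrix Rat Gene 2.0 ST arrays. The authors deposited log2 values per transcript row, taken to be normalized between arrays. Neither software, normalization nor log base is given in the sources used here. The base was inferred from the range. Of 36685 rows, 18511 had a single platform symbol and 575 were listed with several symbols or a blank one. The highest-mean row was kept for the 291 genes with more than 1 row, which left 18166 genes, 87 of them Kcn genes. All 87 Entrez IDs were in RefSeq GRCr8, and 0 symbols changed.

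Groups came from the sample labels. The comparison used R 4.3.3 and limma 3.58.1, calling lmFit and then eBayes without covariates or a filter on dim genes, two-sided, and the code was tested on simulated data. The 3 subunit pairs were compared with exact permutation tests. The labels do not say how the rats were allotted or whether the arrays were run together, and p-values measure the spread between these arrays only. The number of arrays limits the precision. The members and lists were chosen with earlier results of these data known. Full values were given for the 5 kidney rectifiers Kcnj1, Kcnj10, Kcnj13, Kcnj15 and Kcnj16, members past the study thresholds, the highest-mean member of each subfamily, called partners, Slc12a1 and Slc12a3. A further gene that the rule names is not reported here. Others were named as neighbours of the thresholds or for the largest difference in a subfamily, and Abcc9 and Kcnk5 were added after values were seen. Of the members, 60 had a RefSeq promoter entry.

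The counts and median of the Kcn genes and the differences of all Kcn and partner genes were recomputed with other tests (the methods' t-test, Welch's test), with eBayes fitted to an intensity trend, with arrays weighted by quality, and with replicate number as a block. Further settings changed the normalization (quantile, median centring), dropped dim genes, took other rows of a gene, changed the fold rule, or left out 1 array at a time. Subunit pairs and marker lists were not recomputed.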

Additional observations from a re-analysis of the deposited data

How the results depend on the processing

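The count of Kcn genes called higher, 3 with limma, was 2 with the methods' t-test, with Welch's test and among genes with a mean above the median, 0 with a fold over 2, 9 with no fold rule, and 3 to 4 with each array left out. The count called lower, 1, was 0 with the methods' t-test, with Welch's test and with a fold over 2, was 3 with no fold rule, and ranged from 0 to 3 with each array left out. No Kcn gene had an adjusted p under 0.05 in any of the 19 settings, although 12 had an unadjusted p under 0.05. Kcnj1 (0.35) passed with no fold rule, and Kcnj10 (0.93) and Kcnj13 (0.80) did not pass a fold over 2. Kcnj13 was not tested in the filter on the median mean, which kept 13 Kcn genes. Kcnj8 passed that filter through its DM mean alone, so the counts called in that setting carry no weight of their own. Atp12a was not called by Welch's test, nor Sgk1 with a fold over 2. No called difference changed sign. Deviations from the group mean in same-numbered arrays correlated at 0.14, -0.08 and 0.21, and other pairs ran from -0.35 to 0.22. With so few arrays these values cannot show whether same-numbered arrays were handled together. With the replicate number as a block 3 Kcn genes were higher and 1 was lower. Over all genes, 596 were called in the main comparison, 661 with the replicate block, 278 with the methods' t-test, 200 with Welch's test, 362 among genes above the median mean, 123 with a fold over 2, 1340 with no fold rule and 1109 without DM replicate 3. Of those 1109, 379 were higher and 730 lower, against 266 and 330 in the main comparison. Counts of genes with an adjusted p under 0.05, 3 in the main comparison, ranged from 0 to 151, the highest without DM replicate 3.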

Other observations

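Some Kcn genes lie side by side in RefSeq GRCr8, and their log2 differences, HQYDP minus DM, are given together. Kcnj10 (0.93) is adjacent to Kcnj9 (0.11), Kcnj1 (0.35) to Kcnj5 (-0.11), Kcnj16 (0.01) to Kcnj2 (0.02), and Kcnj15 (-0.05) to Kcnj6 (-0.04). Kcna10 (0.40) lies next to Kcna2 (-0.33), and Kcnj11 (0.27) next to Abcc8 (0.25). Of the 87 Kcn genes, 13 overlap another protein-coding gene in that annotation, and whether probes of such genes also read the neighbour was not tested.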
